A study of Mus musculus with 16 samples.

Results

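The genes described here are 41 genes of epithelial adhesion, keratin filaments and the surface ectoderm, taken by name, with earlier results of these data known, out of 48526 genes in each of 2 deposited tables. All 41 symbols were found in both tables. They comprise EpCAM and classical cadherins (4 genes), tight junction and apical polarity genes (12), keratins (6), desmosome genes (6), transcription factors (7), splicing factors (2), and membrane serine proteases with their inhibitors (4). RNA was measured in the dissected heart region of 16 C57BL/6J mouse embryos at embryonic day 8.5, from 2 lines with mutated Greb1l. In line G3, 4 embryos labelled mutant (Greb1lem1Cjean/em1Cjean) were set against 4 WT littermates, called G3 controls. In line G17, 4 mutant embryos (Greb1lex17/ex17) were set against 4 WT littermates, called G17 controls. The labels give no litter, sex or collection day, and a line stands for 1 allele.

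An epithelium is a sheet of polarized cells held together by adherens junctions, tight junctions and desmosomes, with keratin filaments anchored at the desmosomes. The early myocardium is itself an epithelium, joined mainly by N-cadherin and desmosomal proteins. It lies close to foregut endoderm and surface ectoderm, which carry E-cadherin, EpCAM, claudins and simple-epithelium keratins, as does the visceral endoderm of the yolk sac. RNA of the whole region was sequenced, so fewer cells of a type and less RNA per cell cannot be told apart.

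Libraries held 32391421 to 49353025 reads counted in genes. Values are normalized reads, that is reads divided by the size factor of the embryo, which the authors computed within each line. The tissue carried cardiac RNA, with 10 cardiomyocyte markers summing to 124990 to 240479 normalized reads over the 16 embryos. The lowest sum was that of G17 control 29 and the highest that of G3 control 18. Nppa, 1 of the 10 markers, had no read in any mutant or labelled-mutant embryo nor in 3 of the 8 controls, and 9.55 to 60.0 in the other 5. Greb1l, the targeted gene, had 22217, 19026, 23422 and 15911 normalized reads in the G3 embryos labelled mutant, against 11147, 9311, 12529.6 and 10948 in G3 controls. In G17 it had 3255, 5428, 4504 and 3673 in mutants, against 10181, 10278, 9193 and 9619 in controls. G3 embryos labelled mutant carried more Greb1l RNA than their controls, and the RNA level by itself does not settle their genotype. G3 directions thus rest on the labels alone, and whether reads fall in the deleted or altered stretch was not analysed here. G3 control 18 and G17 control 29 stood apart from their groups in several of the epithelial genes, and log2 values of genes that were not called are followed in brackets by the value without that embryo of the line wherever it turned direction or moved by more than 1.5 times.

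Promoter windows are shown for the genes that passed a test and that the RefSeq promoter set of build GRCm38.p6 holds, because the RNA of these genes carries the results: Dsp and Epcam changed in both lines, Krt5 in G3, and Tjp1 in the fit of both lines together. Each window runs 5′ to 3′ on the strand of the gene, from 250 bases before to 50 bases after the annotated start. The Dsp window is chr13:38151044-38151343 (plus strand), the Epcam window chr17:87635729-87636028 (plus strand), the Krt5 window chr15:101712856-101713155 (minus strand) and the Tjp1 window chr7:65371195-65371494 (minus strand). Capitals mark matches to 4 motifs searched on both strands. These were CAGGTG or CACCTG, the E-box of the SNAI and ZEB repressors, GCCNNNGGC of TFAP2 factors, AACCGGTT of grainyhead-like factors, and CCGTTA or TAACGG of OVOL factors.
Dsp: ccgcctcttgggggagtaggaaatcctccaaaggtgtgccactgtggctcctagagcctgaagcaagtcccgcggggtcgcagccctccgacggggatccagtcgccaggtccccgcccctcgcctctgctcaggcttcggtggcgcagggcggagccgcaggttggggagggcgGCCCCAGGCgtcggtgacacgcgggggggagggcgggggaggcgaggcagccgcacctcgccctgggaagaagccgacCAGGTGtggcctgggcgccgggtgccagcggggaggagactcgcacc
Epcam: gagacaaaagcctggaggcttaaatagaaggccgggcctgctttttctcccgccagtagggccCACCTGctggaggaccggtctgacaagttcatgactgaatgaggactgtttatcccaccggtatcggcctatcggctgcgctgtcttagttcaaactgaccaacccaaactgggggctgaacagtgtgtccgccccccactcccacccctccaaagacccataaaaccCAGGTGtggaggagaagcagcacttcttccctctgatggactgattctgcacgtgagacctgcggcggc
Krt5: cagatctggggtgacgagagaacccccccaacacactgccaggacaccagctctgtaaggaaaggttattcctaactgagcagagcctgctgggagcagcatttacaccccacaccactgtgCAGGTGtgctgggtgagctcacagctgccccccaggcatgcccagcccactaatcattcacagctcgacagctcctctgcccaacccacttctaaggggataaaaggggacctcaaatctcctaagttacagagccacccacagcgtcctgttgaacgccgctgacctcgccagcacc
Tjp1: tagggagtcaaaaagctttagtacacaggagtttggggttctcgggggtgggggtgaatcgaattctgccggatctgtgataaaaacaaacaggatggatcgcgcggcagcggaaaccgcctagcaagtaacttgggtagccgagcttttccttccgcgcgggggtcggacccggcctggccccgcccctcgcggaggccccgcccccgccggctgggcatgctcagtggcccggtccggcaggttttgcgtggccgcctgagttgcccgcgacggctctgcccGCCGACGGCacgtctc

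The Dsp window held a TFAP2 match and an E-box, the Epcam window 2 E-boxes, the Krt5 window 1 E-box and the Tjp1 window 1 TFAP2 match. RefSeq windows were found for 23 of the 41 genes, 29 windows in all, of which some overlap because 6 genes have 2 listed starts. E-box letters stood in 21 of these 29 windows (72.4%), against 20.2% of all 32851 windows in the table and 19.1% of the 16486 windows of genes tested here. TFAP2 letters stood in 11 of the 29 (37.9%), against 16.6% of all windows and 23.9% of those of tested genes. The OVOL letters were found in 2 windows (6.9%), against 2.76% of all windows and 3.46% of those of tested genes. Both are overlapping windows of Crb3 that hold the same site, so 1 of the 23 genes had a match. None of the 29 held AACCGGTT, which 0.146% of all windows hold. A match describes the letters of a window and is no measure of binding in these embryos.

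Levels per length are given as TPM, the length-corrected share of transcripts, computed from whole reads and the exon length of each gene. The simple-epithelium keratin genes Krt8 and Krt18 stood highest, at means of 641 and 601 TPM over the 16 embryos. The embryonic claudin gene Cldn6 followed at 259 TPM, the scaffold gene Tjp1 at 162, Dsp and Epcam at 133 each, and Cdh1 at 102. In all, 7 genes averaged above 100 TPM, 21 between 10 and 100, and 13 under 10. Lowest were Trp63, which encodes the p63 regulator of stratified epithelia, and Krt14, a basal-layer keratin gene. Krt14 had no read in 11 of the 16 embryos; with 0 counted, the upper limit is 3 reads, which is 2.53 to 3.84 after normalization. Dsp had 183 ± 17.1 TPM in G3 embryos labelled mutant and 72.5 ± 3.19 TPM in G3 controls, and 189.8 ± 23.2 TPM in G17 mutants and 88.1 ± 16.5 TPM in G17 controls (SD, n = 4 each).

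**Figure D1:**
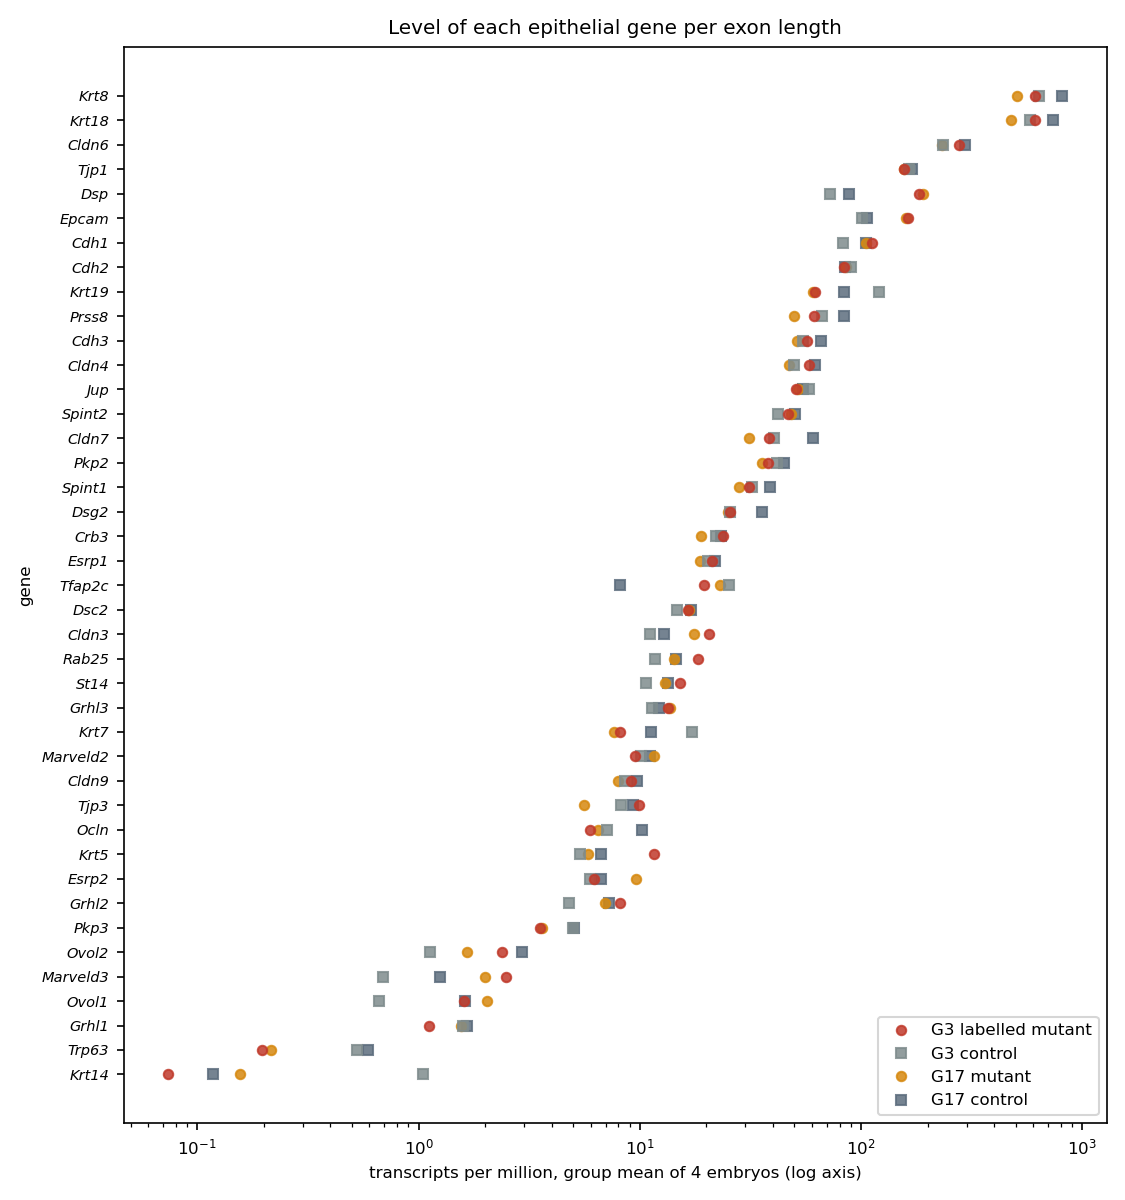
Group means of TPM (log axis) for each of the 41 genes, ranked by the mean over 16 embryos; circles are mutant or labelled-mutant groups and squares are controls, 4 embryos each. Krt8 and Krt18 stand at the top with means of 641 and 601 TPM, and the circles of Dsp and Epcam lie to the right of their squares in both lines.

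Each line was compared on its own, and both lines together in a fit with the line as a term. Dsp and Epcam rose in both lines and in the common fit. Cdh1, St14 and Krt5 rose in G3, and Tjp1 fell in the common fit. No gene of the 41 passed the test of a difference between the lines (interaction term), where 0.005% of 20010 genes passed in each direction, so a call made in G3 alone is not shown to differ from G17. In G3, 5 of the 41 were called higher (12.2%), against 2.35% of the 18025 genes tested, and none lower, against 1.63%. In G17, 2 of the 41 were called higher (4.88%), against 1.87% of 17706 genes, and none lower, against 1.16%. In the common fit, 2 of the 41 were called higher (4.88%), against 5.01% of 20010 genes, and 1 lower (2.44%), against 4.39%; the share called higher there is near the background.

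The median log2 fold change was 0.05 in G3, beside 0.01 over all genes tested, and -0.27 in G17, beside -0.01. Without G3 control 18 the median over the set was 0.11 in G3, and without G17 control 29 it was -0.17 in G17. The filter on low values passed 40 of the 41 in each line, Krt14 being left out. Of these, 23 had a positive value in G3 and 8 in G17, and without those embryos 25 and 16. Without its embryo a gene turned direction in 4 cases in G3 and 8 in G17, and 22 and 16 more moved by over 1.5 times, and of these genes 1, Tfap2c in G3, was called without the embryo and none with it. Embryos labelled mutant lay wholly above the G3 controls for 7 genes and wholly below for none, where 5.91% and 5.61% of all genes did so. G17 mutants lay wholly above their controls for 2 genes and wholly below for 4, where 5.39% and 4.54% of all genes did so.

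**Figure D2:**
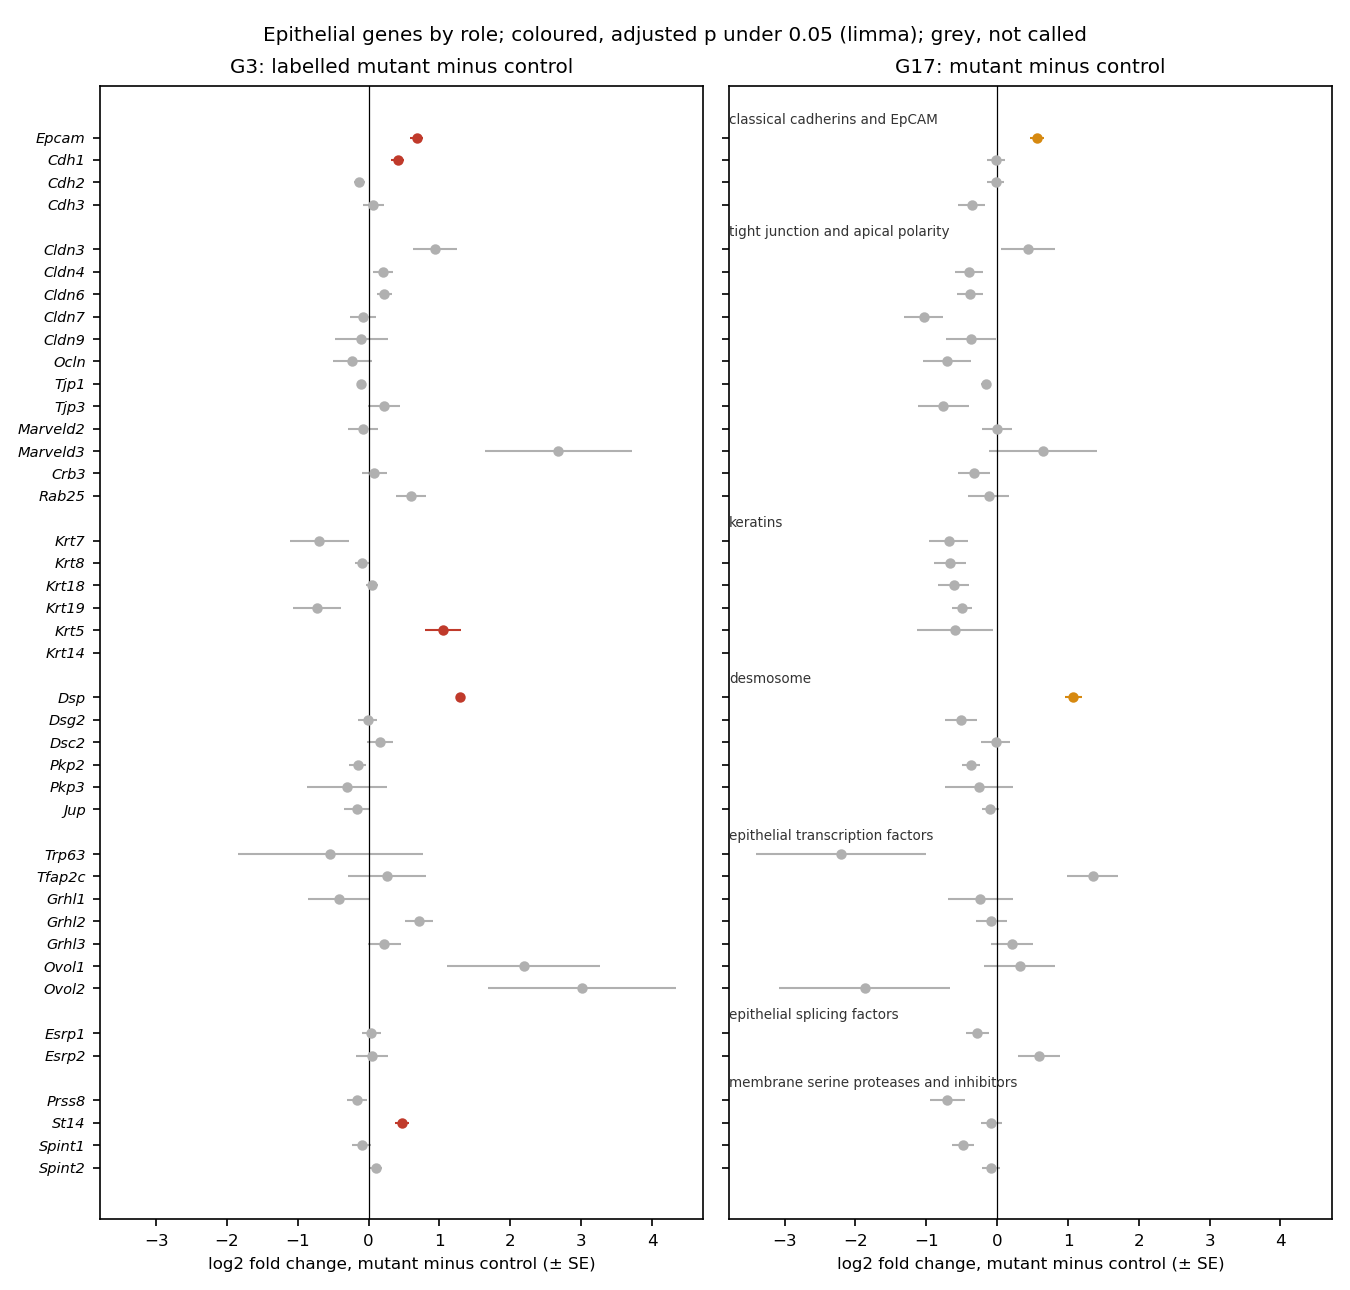
Log2 fold change (x axis, mutant or labelled mutant minus control, ± SE) of each gene that passed the filter, grouped by role, in G3 (left) and G17 (right); coloured points had an adjusted p under 0.05 in limma and grey points did not. Dsp and Epcam are coloured in both panels, Cdh1, Krt5 and St14 in G3, and 32 of the 40 G17 values are negative.

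The desmosome links the filaments of neighbouring cells, and in the heart it carries the mechanical load between cardiomyocytes. Dsp (ENSMUSG00000054889, GRCm38 chromosome 13, 38151294 to 38198577, plus strand) encodes desmoplakin, the plakin that ties the filaments to the desmosomal plaque. It had 20075, 20506, 22943 and 25052 normalized reads in the G3 embryos labelled mutant, against 9039, 9123, 8490.3 and 9280.1 in G3 controls. In G17 it had 27274, 21312, 21726 and 21412 in mutants, against 9654, 14033, 10453 and 9677 in controls. Every mutant or labelled-mutant embryo stood above every control of its line. The ratio of means was 2.47 in G3 and 2.09 in G17. On the log2 scale Dsp differed by 1.30 ± 0.07 (SE) in G3 (limma, adjusted p = 3.99e-07) and 1.08 ± 0.12 in G17 (adjusted p = 0.000419). Over both lines it was 1.19 ± 0.08 (adjusted p = 2.08e-09), and the G3 effect minus the G17 effect was 0.22 ± 0.15 (adjusted p = 0.832).

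None of the other 5 desmosome genes passed in these fits. Pkp2, the main plakophilin gene of the heart, averaged 2544 ± 301 in G3 embryos labelled mutant and 2858 ± 501 in G3 controls, and 2387 ± 228 in G17 mutants and 3107 ± 494 in G17 controls (SD, n = 4 each). Its log2 fold change was -0.16 ± 0.13 (-0.08) in G3 and -0.37 ± 0.12 in G17 (adjusted p = 0.565 and 0.138). Jup encodes plakoglobin, the catenin shared by desmosomes and adherens junctions, and had -0.17 ± 0.18 (0.05) in G3 and -0.10 ± 0.12 (0.008) in G17. Within an embryo, Dsp reads were 5.03 to 5.93 times those of Jup in G3 embryos labelled mutant and 1.26 to 2.56 times in G3 controls (1.98 to 2.56 without G3 control 18), and 4.64 to 6.03 times in G17 mutants and 2.21 to 2.58 times in G17 controls. The desmosomal cadherin genes Dsg2 and Dsc2 had -0.01 ± 0.13 (0.01) and 0.16 ± 0.18 (0.28) in G3, and -0.51 ± 0.22 (-0.27) and -0.02 ± 0.21 (0.20) in G17. Pkp3, a plakophilin gene of other epithelia, had -0.31 ± 0.56 (0.18) in G3 and -0.26 ± 0.48 (0.24) in G17.

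Of 9 further genes of the desmosome and the cornified envelope, 1 rose in each line and none fell. This was Ppl (chromosome 16, 5086291 to 5132421, minus strand), which encodes periplakin, a plakin like desmoplakin. It had 1887, 1700.2, 1704 and 1939.9 normalized reads in the G3 embryos labelled mutant, against 483, 746, 811 and 874 in G3 controls. In G17 it had 1806, 1296, 1631 and 1412 in mutants, against 814, 951, 802 and 944 in controls. The groups did not overlap in either line. On the log2 scale Ppl differed by 1.34 ± 0.16 in G3 (adjusted p = 0.000601), 0.80 ± 0.14 in G17 (adjusted p = 0.00817) and 1.07 ± 0.12 in both together (adjusted p = 6.93e-06). The foregut score is the mean of log2(value + 1) over 10 foregut endoderm markers. With it as a term, 27 genes in all passed in G17, against 537 without it. The G17 value of Ppl was then 1.02 and no longer passed (adjusted p = 0.0752). Evpl, the gene of its partner envoplakin, averaged 262 ± 80.5 in the G3 embryos labelled mutant and 158 ± 49.3 in G3 controls, and was not called there (adjusted p = 0.23).

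Epcam (ENSMUSG00000045394, chromosome 17, 87635979 to 87651129, plus strand) encodes a homophilic adhesion protein of early epithelia. It had 4448, 4628, 4367 and 4574 normalized reads in the G3 embryos labelled mutant, against 2478, 2628, 3367 and 2872 in G3 controls. The G17 mutants had 4494, 4523, 4421 and 4136, against 2600.4, 3427, 2748 and 3209.6 in G17 controls. The mutant and labelled-mutant values lay close together, above all controls of their line. The ratio of means was 1.59 in G3 and 1.47 in G17, with log2 fold changes of 0.68 ± 0.09 (adjusted p = 0.00101) and 0.56 ± 0.10 (adjusted p = 0.00825). Over both lines it was 0.62 ± 0.07 (adjusted p = 3.2e-06), and the lines differed by 0.12 ± 0.13 (adjusted p = 0.909). The sum of 10 foregut endoderm markers was 5679 to 7167 normalized reads in G3 embryos labelled mutant and 4709 to 5447 in G3 controls, and 5023 to 6758 in G17 mutants and 4691 to 8102 in G17 controls. The score of these markers, the mean of log2(value + 1) over the 10 genes, overlapped in G3, unlike the sum. It was 7.29 to 8.65 in embryos labelled mutant and 7.68 to 8.59 in G3 controls. In G17 the score was 8.18, 7.08, 7.78 and 7.12 in mutants, against 8.68, 8.71, 8.21 and 7.97 in controls. Only G17 mutant 33 thus lay within the control range of the score. Directions within the list were mixed: of 9 markers tested in G17, 4 had positive log2 values and 5 negative, and 1 was called lower. With this score as a term, Epcam stayed called in G3 and in the common fit. A term for the sum was not fitted. The G17 value of Epcam was 0.58, against 0.56 without the score, and no longer passed (adjusted p = 0.231). With the score 27 genes in all passed in G17, against 537 without it.

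Of the classical cadherins, Cdh1, which encodes E-cadherin (chromosome 8, 106603351 to 106670246, plus strand), rose in G3. Its values were 6609, 6086, 6123 and 6869 in the embryos labelled mutant, against 4657, 4140.2, 4890.1 and 5772 in G3 controls, without overlap, and its log2 fold change was 0.41 ± 0.09 (adjusted p = 0.0214). Leaving out an embryo ended the call in 4 of 8 fits, without G3 control 16 or 20 or without the embryo labelled mutant 23 or 31, with values from 0.33 to 0.49 over the 8. In G17 Cdh1 had 6859.6, 5528, 6162 and 5631 in mutants, against 4893, 8042, 5591 and 6333 in controls, and the groups overlapped (log2 fold change -0.02 with all 8 embryos and 0.11 without G17 control 29, with adjusted p = 0.965 over all 8). Without the 2 embryos that stood apart, Cdh1 was called higher in the common fit (0.22, adjusted p = 0.0484). Cdh2, the N-cadherin gene of myocardium and neural tube, had -0.13 ± 0.07 (-0.07) in G3 and -0.02 ± 0.12 (-0.16) in G17. Cdh3, the P-cadherin gene, had 0.06 ± 0.15 (0.26) and -0.36 ± 0.19 (-0.16). Neither was called in the 3 fits.

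**Figure D3:**
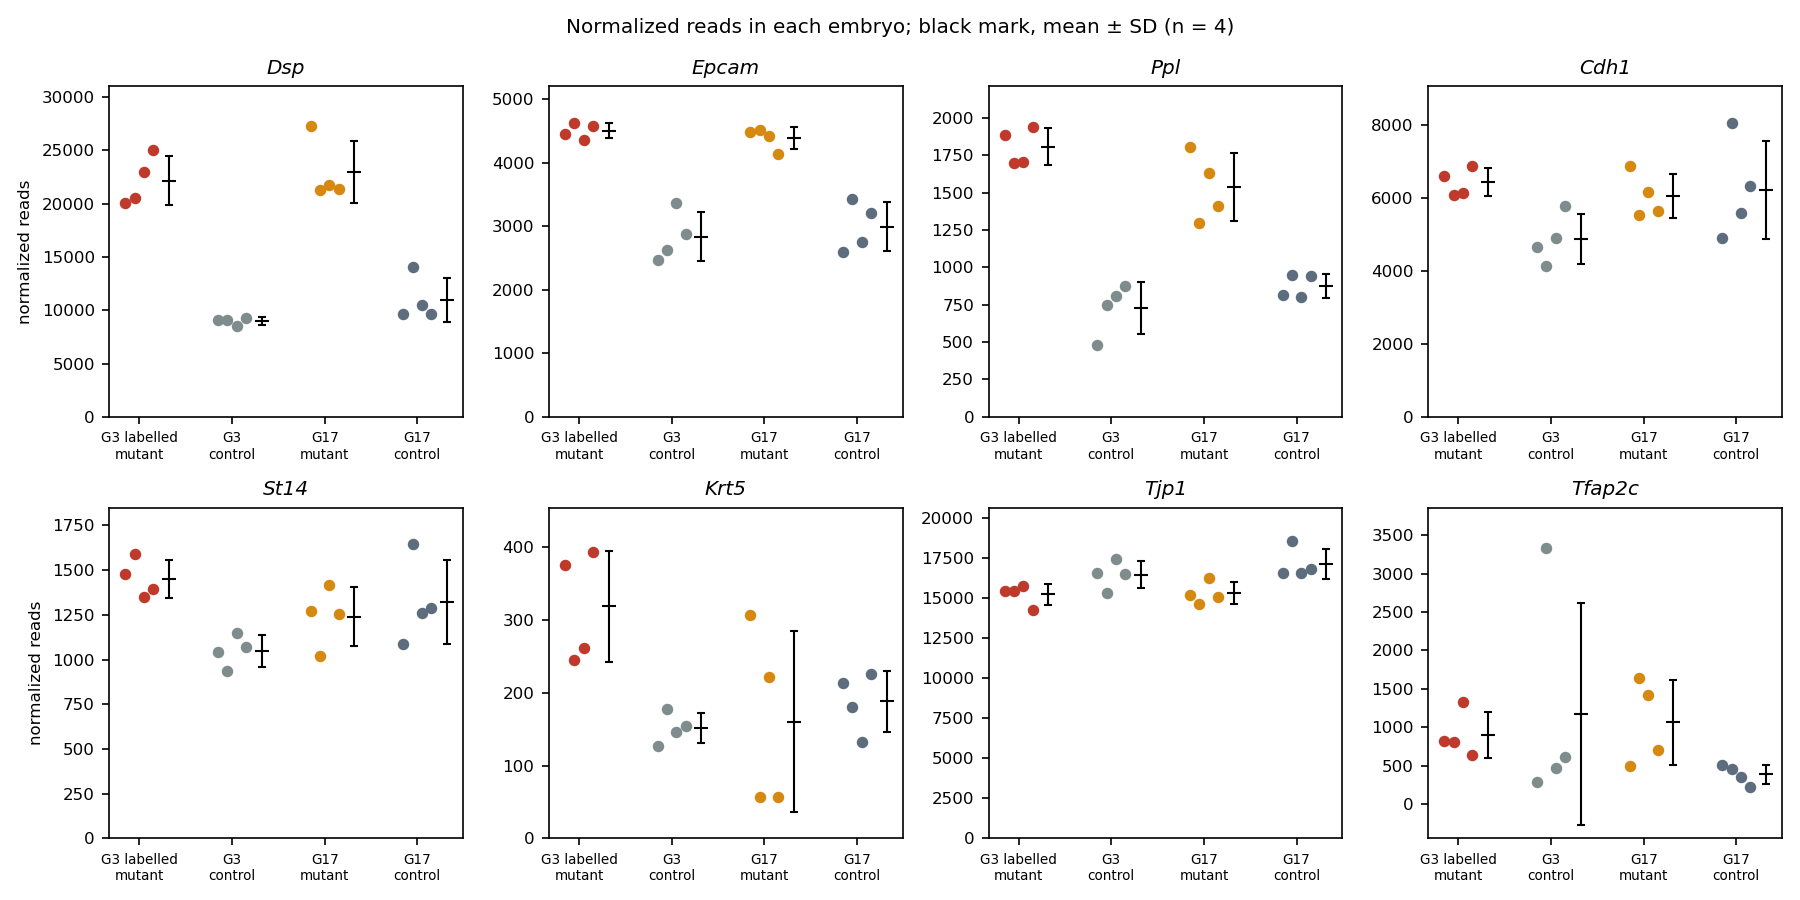
Normalized reads (y axis, linear) of 8 genes in each of the 16 embryos, with mean and SD (n = 4) in black. Dsp, Epcam and Ppl show no overlap between mutant or labelled-mutant embryos and controls in either line, Cdh1, St14 and Krt5 show none in G3, and a single G3 control holds the highest Tfap2c value, 3331.

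Tight junctions seal the space between epithelial cells, with claudins forming the seal and ZO proteins tying it to actin. Of the 12 genes of tight junctions and apical polarity, none passed in G3 or in G17, and 1 fell in both lines together. That gene, Tjp1 (chromosome 7, 65296165 to 65527781, minus strand), encodes ZO-1; the RefSeq window printed above belongs to a start inside this span. It had 15466, 15425, 15762 and 14265 normalized reads in G3 embryos labelled mutant, against 16585, 15340.2, 17416 and 16491 in G3 controls. The G17 mutants had 15214, 14660.3, 16256 and 15098, against 16567, 18566, 16581 and 16806 in G17 controls. The groups overlapped in G3 and did not in G17. The common effect was small, -0.14 ± 0.04 (adjusted p = 0.0283). It was no longer called in 4 of the 16 fits that left out an embryo (G3 control 20, G3 labelled mutant 31, G17 mutant 36 or 42; adjusted p up to 0.0594), where the effect was -0.15 to -0.12 over the 16, nor with the yolk sac score (-0.11, adjusted p = 0.337) or the foregut score (-0.12, adjusted p = 0.0879) as a term.

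Among the claudin genes, Cldn3 averaged 324 ± 61.7 in the G3 embryos labelled mutant and 180.0 ± 87.8 in G3 controls, and 276 ± 96.2 in G17 mutants and 208 ± 88.5 in G17 controls (adjusted p = 0.128 and 0.642). It was called higher in G3 without G3 control 21 (1.23, adjusted p = 0.039). Cldn7 averaged 941 ± 146 in the G3 embryos labelled mutant and 1011 ± 263 in G3 controls. In G17 it had 883, 416, 683 and 1044 in mutants, against 1138, 2298, 1389.7 and 1277 in controls; the groups did not overlap, and the test was missed (-1.04 ± 0.27, adjusted p = 0.0644). Cldn7 had an adjusted p of 0.00673 in DESeq2 on the whole reads and of 0.0248 in the authors' deposited table. DESeq2 made more false calls than limma on simulated data. Those data held no embryo that stood apart, so they cannot rank the tools for this gene. Cldn6 had 0.22 ± 0.10 (0.11) in G3 and -0.38 ± 0.18 (-0.24) in G17, Cldn4 0.20 ± 0.14 (0.32) and -0.39 ± 0.20 (-0.21), and Cldn9, the neighbour of Cldn6 on the chromosome, -0.11 ± 0.38 and -0.37 ± 0.35.

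The other 6 genes of the group were not called. Ocln, the occludin gene, had -0.23 ± 0.27 (-0.48) in G3 and -0.70 ± 0.34 (-0.45) in G17. Tjp3, which encodes ZO-3, had 0.22 ± 0.23 and -0.76 ± 0.36 (-0.45), and Crb3, a determinant of the apical membrane, 0.08 ± 0.18 (0.03) and -0.33 ± 0.23 (-0.16). Marveld2, the tricellulin gene, averaged 403 ± 32.4 in G3 embryos labelled mutant and 440.0 ± 129 in G3 controls, and 493 ± 126 in G17 mutants and 482 ± 25.9 in G17 controls. Rab25, a vesicle-trafficking gene of epithelia, had 298 to 465 in the G3 embryos labelled mutant and 217 to 288 in G3 controls, without overlap (adjusted p = 0.15). In G17 its groups overlapped (log2 fold change -0.12, adjusted p = 0.895). Marveld3, another tight junction gene, did not overlap in G3 either, at 103 ± 26.6 in the embryos labelled mutant and 29.4 ± 20.7 in G3 controls (adjusted p = 0.185). It had no read in G3 control 18, and its log2 fold change in G3 was 2.68 (1.35). In G17 its groups overlapped (0.65, adjusted p = 0.742).

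The filaments of simple epithelia pair a type II keratin, such as Krt8 or Krt7, with a type I keratin, such as Krt18 or Krt19. Of the 6 keratin genes, 1 rose in G3 and none passed in G17. Krt5 (chromosome 15, 101707070 to 101712898, minus strand), a keratin of basal epidermal cells, had 376, 245, 261 and 393 normalized reads in the embryos labelled mutant, against 127, 178, 146 and 154 in G3 controls (1.05 ± 0.25, adjusted p = 0.0347). The call held in 1 of the 8 fits that left out an embryo, that without G3 control 18, with effects of 0.94 to 1.16 over the 8 and adjusted p up to 0.117. It ended without the filter on low values as well (adjusted p = 0.0519). In G17 its mutants were divided, at 307, 56.6, 221 and 56.6, against 213, 181, 133 and 226 in controls (adjusted p = 0.655). Krt14, its usual partner, had at most 92 reads in any embryo.

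Krt8 had 12829, 15416, 15172 and 16279 normalized reads in the G3 embryos labelled mutant, against 14476, 18295, 13678 and 17578 in G3 controls. In G17 it had 17102, 10338, 11084 and 11225 in mutants, against 14412, 33294, 17673 and 16477 in controls. The groups overlapped in both lines. Its fold change was -0.10 ± 0.09 (-0.03) in G3 and -0.67 ± 0.22 (-0.41) in G17 (log2, adjusted p = 0.656 and 0.138). Krt18 had 0.04 ± 0.09 (0.10) and -0.61 ± 0.22 (-0.36), and the Krt8 reads of an embryo were 1.28 to 1.64 times its Krt18 reads across all 16. Krt19 had 1181, 1644, 1386 and 1431 in G17 mutants, against 1650.1, 2296, 2293 and 1778 in G17 controls, without overlap (adjusted p = 0.0825). Its log2 fold change was -0.73 (-0.26) in G3, -0.50 in G17 and -0.61 ± 0.20 in the common fit (adjusted p = 0.0628). Krt19 was called lower in the common fit with at least 5 CPM, edgeR or DESeq2. The same held without G3 control 16, without G3 control 18 and without both embryos that stood apart. In G17 it was called lower with DESeq2 and without G17 control 20. Krt7 had -0.69 ± 0.42 (-0.11) in G3 and -0.69 ± 0.28 in G17.

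None of the 7 transcription factors and 2 splicing factors passed in the 3 fits. Grhl2, a grainyhead-like activator of Cdh1 and claudin genes, averaged 876 ± 225 in the G3 embryos labelled mutant and 530.2 ± 118 in G3 controls (0.71 ± 0.20, adjusted p = 0.0656). It was called without G3 control 20 and without the embryo labelled mutant 31 (adjusted p = 0.0396 and 0.0409). In G17 it had -0.08 ± 0.22 (0.002). Tfap2c, an AP-2 factor of surface ectoderm and trophoblast, had 489, 1647, 1414 and 699 in G17 mutants, against 506, 461, 355 and 227 in G17 controls (1.35 ± 0.36, adjusted p = 0.0708). The lowest mutant lay below the highest control. Its adjusted p was 0.00166 in DESeq2 and 0.00644 in the authors' deposited table.

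Grhl1 had -0.42 ± 0.44 (-0.08) in G3 and -0.24 ± 0.46 in G17, and Grhl3, a gene needed for neural tube closure, 0.22 ± 0.23 (0.11) and 0.22 ± 0.30 (0.33). Trp63 had no read in 2 embryos and at most 102 reads in any. Ovol1 and Ovol2, genes of zinc finger repressors, had at most 142 and 128 reads and none in 1 and 3 embryos, so their fitted folds depend on the pseudocount and are not given. Esrp1 and Esrp2, which encode splicing regulators of epithelial isoforms, had 0.04 ± 0.13 (-0.08) and 0.04 ± 0.22 (0.13) in G3, and -0.28 ± 0.16 (-0.17) and 0.60 ± 0.30 (0.90) in G17. The tables count whole genes, and isoforms were not analysed here.

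St14 encodes matriptase, a membrane serine protease that works with prostasin (Prss8) under the inhibitors encoded by Spint1 and Spint2. St14 (chromosome 9, 31089402 to 31131853, minus strand) rose in G3, where it had 1476, 1592, 1349 and 1395 in the embryos labelled mutant, against 1042, 934, 1147 and 1073 in G3 controls, without overlap. Its log2 fold change was 0.47 ± 0.10 (adjusted p = 0.0235), and leaving out an embryo ended the call in 3 of 8 fits (G3 control 16, or labelled mutant 23 or 29; adjusted p up to 0.0917). In G17 St14 had 1271, 1019, 1415 and 1255 in mutants, against 1088, 1647, 1262 and 1286 in controls (adjusted p = 0.841). Prss8 had -0.17 ± 0.14 (-0.10) in G3 and -0.70 ± 0.25 (-0.42) in G17, Spint1 -0.09 ± 0.13 and -0.48 ± 0.15, and Spint2 0.11 ± 0.08 and -0.08 ± 0.12 (0.03). Spint1 did not overlap between G17 groups, with the mutants lower (adjusted p = 0.126).

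Other genes of the same machinery were counted from lists. Of 18 genes of polarity and junction scaffolds, none passed in G3. Crb2, a crumbs-family apical polarity gene, was the 1 that fell in G17 (-0.45 ± 0.11, adjusted p = 0.0386) and in the common fit (-0.27 ± 0.07, adjusted p = 0.0239). Its G17 call ended in 6 of 8 fits leaving out an embryo, with a pseudocount of 0.1 and without the filter, and with the yolk sac score the value was -0.21 in G17 and -0.10 in the common fit (adjusted p = 0.705 and 0.652). The foregut score ended both calls too (-0.29 and -0.20). Of 12 catenins, nectins and other cadherins, Nectin2 rose (0.22 ± 0.05, adjusted p = 0.0348) and Cdh11, a mesenchymal cadherin gene, fell (-0.30 ± 0.08, adjusted p = 0.0464) in G3, and none passed in G17 or the common fit. Leaving out an embryo ended the Nectin2 call in 6 of 8 fits and the Cdh11 call in 7 of 8, edgeR and another pseudocount ended that of Cdh11, and the yolk sac score ended both (adjusted p = 0.221 and 0.0666). Nectin2 was called higher in the common fit under 4 alternatives, among them the one without the 2 embryos that stood apart (0.21, adjusted p = 0.0299). Among 13 other claudins and junctional adhesion molecules, none passed in G3, Cldn2 fell in G17 (-1.82 ± 0.45, adjusted p = 0.0481) and Cldn11 fell in the common fit (-0.76 ± 0.16, adjusted p = 0.00456). The Cldn2 call ended in 11 alternatives, among them edgeR, 6 of 8 fits leaving out an embryo, the foregut score (-1.23, adjusted p = 0.682) and the yolk sac score (-0.12, adjusted p = 0.951). That of Cldn11 ended with the yolk sac score (-0.80, adjusted p = 0.053). None of 10 other keratins passed in any of the 3 fits.

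Of 10 regulators and products of the epithelial-mesenchymal transition, the vimentin gene Vim rose in G3, at 14771 ± 1924 in embryos labelled mutant and 9941 ± 1464 in G3 controls (0.57 ± 0.10, adjusted p = 0.00829), and in the common fit (0.51 ± 0.10, adjusted p = 0.0016). In G3 1 gene of that list fell, and none passed in G17. Of 10 genes of the surface protease pathway, F2r, a thrombin receptor gene, fell in the common fit (-0.16 ± 0.05, adjusted p = 0.0303), and none passed in either line. That call ended in 8 of 16 fits leaving out an embryo and with either score. Of 12 further surface ectoderm genes none passed in either line, and Fermt1, the gene of an integrin activator, fell in the common fit (-0.45 ± 0.12, adjusted p = 0.0191). It was not called with the yolk sac score (-0.30, adjusted p = 0.384) or without the 2 embryos that stood apart (adjusted p = 0.0503). For all 12 genes the sum was 3939 to 4884 normalized reads in G3 embryos labelled mutant and 4625 to 6410 in G3 controls, and 3451 to 3816 in G17 mutants and 4630 to 8116 in G17 controls. Krt17 of this list had no read in any mutant or labelled-mutant embryo nor in 3 of the 8 controls, and 6.08 to 53.6 normalized reads in the other 5 controls. The part of this tissue in the results was not tested.

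Among the controls, 2 embryos stood apart. G17 control 29 had the highest value of the 8 G17 embryos for 24 of the 41 genes, and lay more than 1.5 times above the mean of the other 3 controls for 17. Krt8 and Krt18 reached 33294 and 21787 there, against 14412 to 17673 and 9576 to 12197 in the other G17 controls. Prss8 reached 3305 against 1172 to 1851, and Cdh2 was lower there, at 6411 against 9062 to 10220.2. The same embryo held the highest sum of 15 yolk sac visceral endoderm markers. That sum was 15478 to 43079 in G3 embryos labelled mutant and 34361 to 115611 in G3 controls, and 19764 to 65728 in G17 mutants and 47215 to 302219 in G17 controls. None of the 15 passed in G3, where all 14 tested had negative values (median log2 fold change -1.23, beside 0.01 over all genes). In G17 8 fell (53.3%, against 1.16% of all genes). In the common fit 11 fell (73.3%, against 4.39%). Apoc2 had no read in any mutant or labelled-mutant embryo and few in the controls. The part of this tissue in the keratin and junction values was not tested. The yolk sac score is the mean of log2(value + 1) over the 15 genes. When it entered the fit, Dsp and Epcam were still called higher in both lines. In G3, Cdh1 (0.47, adjusted p = 0.0765), St14 (0.47, adjusted p = 0.155) and Krt5 (0.86, adjusted p = 0.27) were not called. Without the score their values were 0.41, 0.47 and 1.05. With it 216 genes in all passed in G3, against 717 without it. In the same fits Cldn3 was called higher in G3 (1.58, adjusted p = 0.0309), and Cdh1 (0.44, adjusted p = 0.019) and Cldn3 (1.29, adjusted p = 0.018) were called higher in the common fit.

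**Figure D4:**
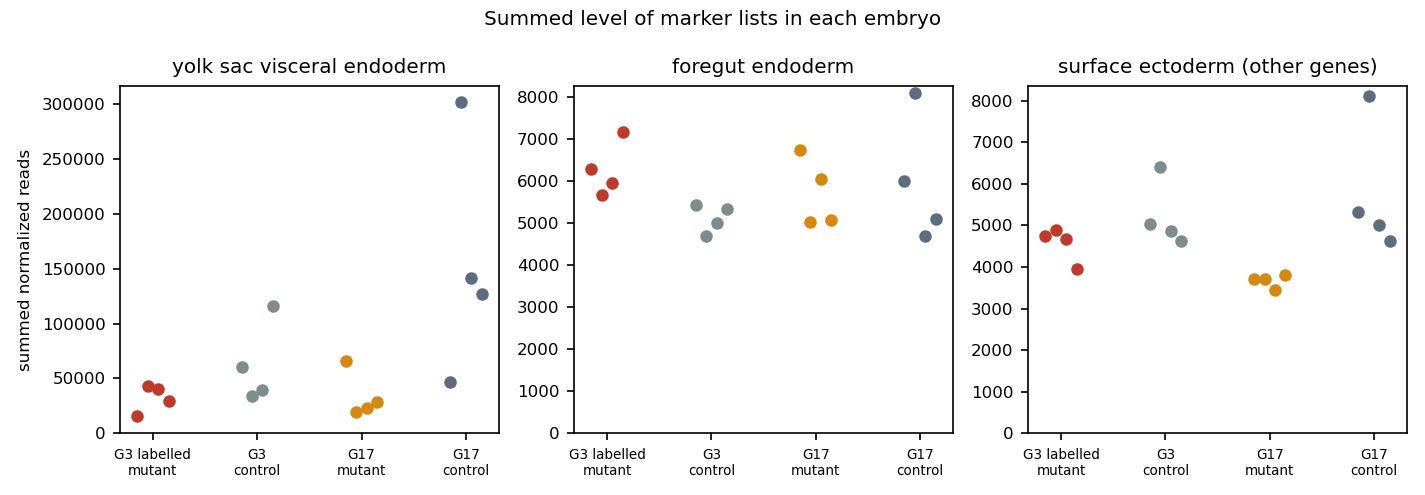
Summed normalized reads (y axis) of 3 marker lists in each of the 16 embryos; none of their genes is among the 41. G17 control 29 is the highest embryo in all 3 panels, at 302219 for the yolk sac list, where the G17 mutants lie at 19764 to 65728.

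G3 control 18 had the highest value of the 8 G3 embryos for 12 of the 41 genes and the lowest for 12. Tfap2c reached 3331 normalized reads there, against 293 to 614 in the other G3 controls, Krt7 3840.3 against 712 to 857, and Krt19 6190.0 against 1557 to 1826. Of 10 trophoblast genes, listed after these values were seen, 9 were highest of the G3 embryos in this one. Not all of the 10 are particular to trophoblast: Gata3 is also in the surface ectoderm list, and Hand1 had 11481 here and 11706 in G17 control 29. Of the 16 embryos, G3 control 18 also held the highest sum of 10 cardiomyocyte markers, 240479. Its sum of 6 endothelial markers was the highest too, at 26881 against 12158 to 15016 in the other G3 controls. Prl3d1, a placental lactogen gene, had 44.9 to 615 in G3 embryos labelled mutant, and 5937 in this embryo against 11.7 to 40.3 in the other G3 controls. The part of trophoblast or other tissue RNA in the Tfap2c, Krt7 and Krt19 values was not tested. With this embryo Tfap2c had a G3 effect of 0.26 (adjusted p = 0.86). Without it Tfap2c was called higher in G3 (0.99, adjusted p = 0.0441) and in the common fit (1.18, adjusted p = 0.00432), and Krt19 (-0.39, adjusted p = 0.0241) and Cldn7 (-0.67, adjusted p = 0.0335) lower in the common fit. Dsp and Epcam were called in all 8 fits of each line that left out an embryo, with values of 1.24 to 1.34 and 0.61 to 0.76 in G3, and 0.99 to 1.20 and 0.50 to 0.63 in G17.

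**Figure D5:**
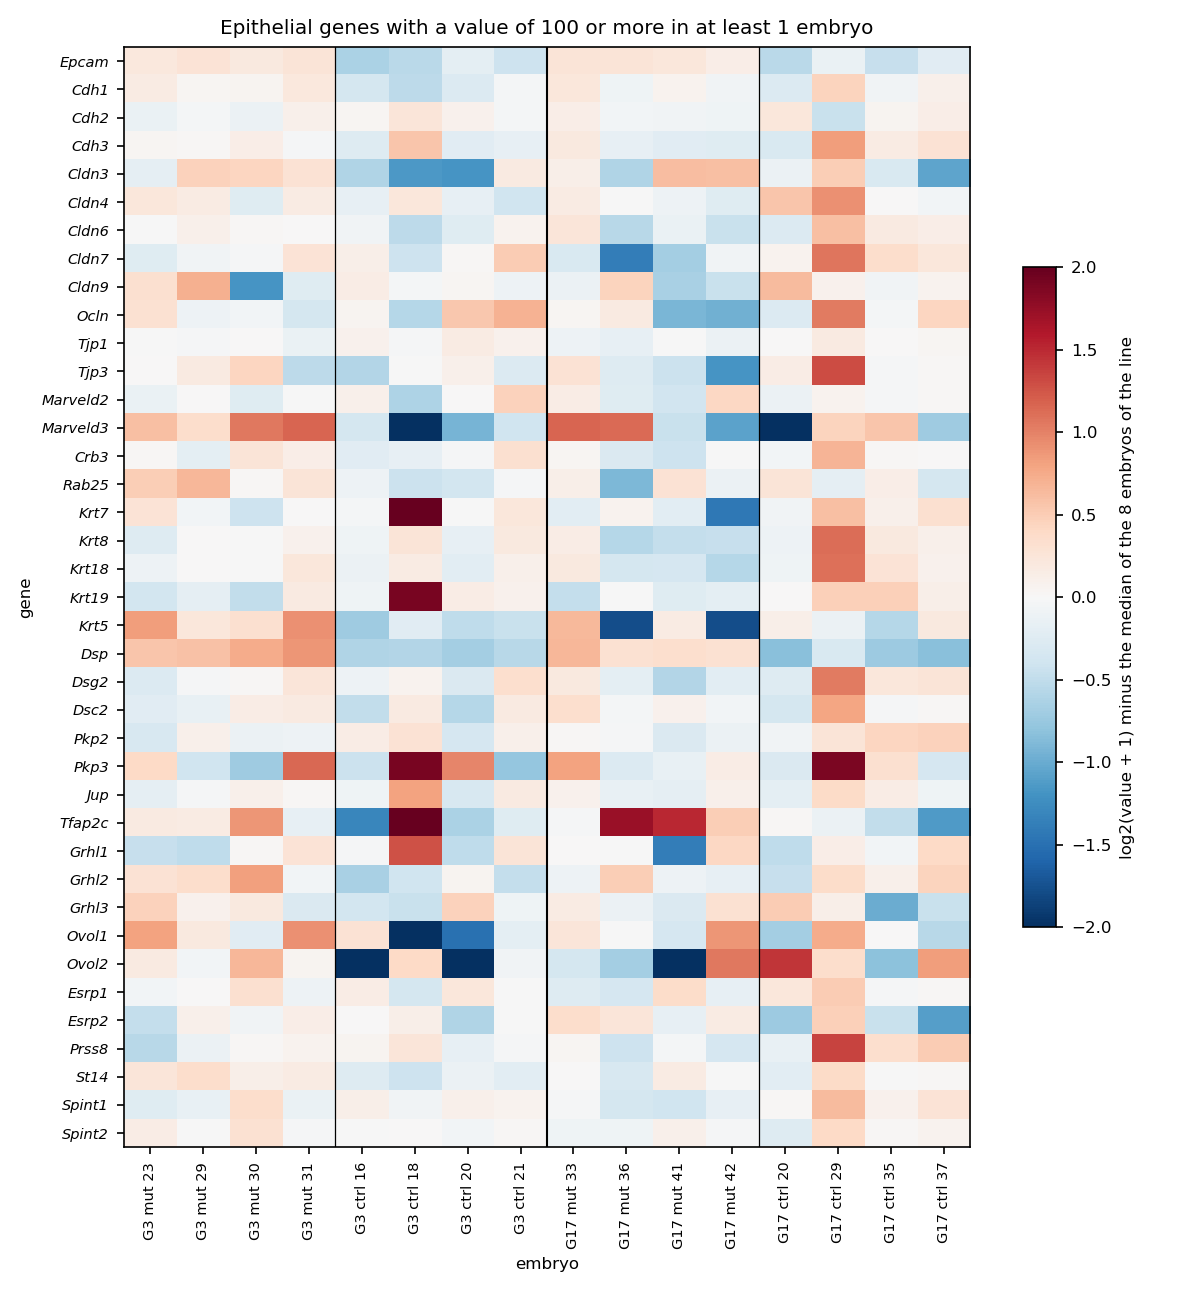
Log2(value + 1) of each epithelial gene in each embryo minus the median of the 8 embryos of its line (colour, from -2 to 2), for genes that reach 100 normalized reads in at least 1 embryo. The column of G17 control 29 is red for most genes and that of G3 control 18 for Krt7, Krt19, Pkp3 and Tfap2c, while Dsp and Epcam are red in all 8 mutant and labelled-mutant embryos and blue in all 8 controls.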

How the data were processed

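The authors deposited 1 table per line, in which each embryo's column holds a normalized signal, reads per gene divided by a size factor computed within the line, per the file headers. Paired-end reads were 100 bases long, per the labels' protocols. HISAT2, featureCounts of Subread, DESeq2 and build GRCm38 are named per the submitters' processing notes; versions and strand handling: not given in the sources used here. If strand was not used, overlapping genes may share reads. The same tables hold the authors' deposited p-values, raw and adjusted. Dividing by the step of 1 read gave back whole reads for 100% of values, within 0.01 read or a relative 2e-06.

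In R 4.3.3, limma 3.58.1 with a mean-variance trend was fitted to log2(value + 1) for genes reaching 10 in 4 embryos or more, because the deposited values are not counts. A call is a Benjamini-Hochberg adjusted p under 0.05 over all genes tested. Fold changes are on that log2 scale; for low genes they can understate the ratio of means, and where some embryos have no read they can exceed it. Each line was fitted with its 8 embryos; the effect shared by both lines and the interaction were fitted on all 16 with the line as a term. Each embryo was 1 replicate, and no pair of libraries of a group agreed within sampling noise; p-values measure the spread between these embryos. Intervals of 0 reads cover counting error only. Exon lengths and gene coordinates are from GENCODE M21 (GRCm38), promoters from RefSeq. Genes named are the 41, Greb1l, and from each of 16 other lists up to 3 genes with the smallest p in the common fit; Prl3d1 was chosen after its values were seen. The members and lists were chosen with earlier results of these data known. Alternatives were edgeR 4.0.16 and DESeq2 1.42.0 on the whole reads, other pseudocounts, filters and factors, marker scores as a term, and leaving out embryos. The fits were tested on simulated data with 5 seeds. There limma and edgeR kept their share of false calls under the threshold, and DESeq2 exceeded it in both lines. In the simulation every gene was given the same spread between embryos and no embryo stood apart. It therefore cannot rank the tools on the real embryos.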

Additional observations from a re-analysis of the deposited data

Results flagged for a closer look

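In a group of 4 embryos, an embryo was singled out when its gap to the nearest other as a share of the group's range passed Dixon's critical value, which chance gives in about 1 of 20 groups. Of 163 groups examined over the 41 genes, 18 met this, for 16 genes. G17 mutant 33 was the highest of its group for Cdh2 (9504 normalized reads, others 8224 to 8335), Cdh3 (3446, others 2541 to 2693), Krt8 (17102, others 10337 to 11225), Dsp (27274, others 21313 to 21726) and Krt14 (13.9, others 0). It also held the highest yolk sac marker sum of the G17 mutants, 65728.

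G17 control 29 was the highest control of its line for Tjp1 (18566, others 16567 to 16806), Tjp3 (793, others 314 to 356), Crb3 (657, others 392 to 417) and Pkp3 (532, others 113 to 179). G3 control 18 was the highest of its group for Cdh3 (4460, others 2533 to 2714), Krt7 (3840, others 712 to 857), Krt19 (6190, others 1557 to 1826) and Tfap2c (3331, others 293 to 614). The G3 embryo labelled mutant 30 was the lowest of its group for Cldn4 (1056, others 1394 to 1455) and the highest for Spint1 (1405, others 927 to 1001). The remaining cases were Grhl2 in G17 mutant 36 (1013, others 648 to 671), Cldn9 in G17 control 20 (243, others 150 to 166) and Krt14 in G17 control 35 (10.95, others 0). The Krt14 cases, of 15 reads in G17 mutant 33 and 9 in G17 control 35, met the rule by construction. With all others at 0 the gap equals the range at any value, so the stated chance rate does not apply to them.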

How the results depend on the processing

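No paired analysis was possible because the labels give no litter by which mutant and control embryos of a line could be matched. The alternative fits called Dsp and Epcam higher each time, except Epcam in G17 with the foregut score. Of the 41 genes, 5 were called higher in G3 (3 with the yolk sac score, 2 to 6 leaving out an embryo), 2 in G17 (1 with the foregut score, 2 to 3 leaving out an embryo) and 2 in the common fit (4 with the yolk sac score, 4 without G3 control 18 and G17 control 29, an alternative chosen after seeing the data, and 2 to 4 leaving out an embryo). Called lower were 0 in G17 (1 with a pseudocount of 5, at least 5 CPM or the authors' deposited adjusted p, 3 with DESeq2, 0 to 4 leaving out an embryo) and 1 in the common fit (2 with at least 5 CPM, edgeR or both embryos left out, 5 with DESeq2, 0 with either score, 0 to 3 leaving out an embryo). Genes called in all numbered 717 in G3 (1281 with DESeq2, 216 with the yolk sac score, 339 to 885 leaving out an embryo), 537 in G17 (1072 with DESeq2, 159 with the yolk sac score, 27 with the foregut score, 219 to 630 leaving out an embryo), 1880 in the common fit (834 with the yolk sac score) and 2 for a line difference (15 with DESeq2). Tek, an endothelial gene, had -0.20 in the common fit and 0.46 with the yolk sac score (log2). On simulated data DESeq2 exceeded its nominal share of false calls and limma did not, but those data held no embryo that stood apart. The causes of the shifts were not tested. Genes with few reads, such as Krt14, Trp63, Ovol1 and Ovol2, are limited by depth.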
